A study of Mus musculus with 12 samples.

Results

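The Nr4a receptors, the Egr activators, their Nab corepressors and Npas4 were followed across 4 groups of mouse splenic CD8 T cells. The 9 genes, of 20778 in the count table, are Nr4a1, Nr4a2, Nr4a3, Egr1, Egr2, Egr3, Nab1, Nab2 and Npas4. The first 8 were chosen as members of these gene families, with earlier results of these data known. Npas4 was picked on its level in these libraries, for its rise with αCD3, so its levels are described, and tested only between IFNγ and LPS.

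The cells came from spleens of C57BL/6 mice, labelled 6 weeks old (the study's methods give an older range for its mice), and were taken with MojoSort magnetic beads. Each group had 3 mRNA sequencing libraries from cells cultured for 6 h. Naïve cells were cultured without an added stimulus, αCD3 cells with an antibody to the CD3 chain of the T cell receptor, IFNγ cells with 70 ng/ml interferon γ, and LPS cells with bacterial lipopolysaccharide, a ligand of toll-like receptor 4. The αCD3 and LPS doses are both given as 1, in µg/ml in one label field and in mg/ml in another. The labels do not say whether the replicates came from separate mice or pools. The comparisons ask how the gene expression profile of T cells differs with the kind of activation.

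Nr4a, Egr and Npas4 genes are immediate early genes, switched on without new protein synthesis soon after a receptor signals through calcium, calcineurin and the ERK kinases. Egr proteins are zinc finger activators that turn on Nab2, and Nab proteins bind the Egr factors and repress their targets, which closes a feedback loop. Nr4a proteins are nuclear receptors that act without a classical ligand. In T cells, Egr2, Egr3 and the Nr4a receptors are known as markers of antigen receptor signalling and as restraints on effector function.

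Library depth ranged from 10196248 to 27610175 estimated counts, with 14318 to 15343 genes detected. The labelled cell type was present, with Cd8a at 234 ± 32.3 CPM and Cd3e at 128 ± 5.74 CPM in Naïve (CPM, counts per 1000000, mean ± SD, n = 3, as throughout). B cell transcripts were abundant too: Cd79a stood at 903 ± 67.7 CPM in Naïve, and the 14 B cell markers summed to 3880 to 4240 CPM in Naïve, 2720 to 3170 in αCD3, 3250 to 3390 in IFNγ and 2390 to 3570 in LPS. The 14 T cell markers summed to 2090 to 2380 CPM in Naïve, 3300 to 3420 in αCD3, 2110 to 2370 in IFNγ and 1680 to 1910 in LPS. The 14 monocyte and macrophage markers summed to 449 to 852, 310 to 465, 356 to 689 and 267 to 482 CPM in the same order, and no marker of these 3 lists was at 0 in all libraries of a group. The replicate 1 libraries stood apart: the erythroid and platelet sum was 351 to 584 CPM in these 4 libraries and 1310 to 4120 CPM in the other 8. In bulk RNA, fewer cells of a type and less RNA per cell cannot be told apart.

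**Figure D1:**
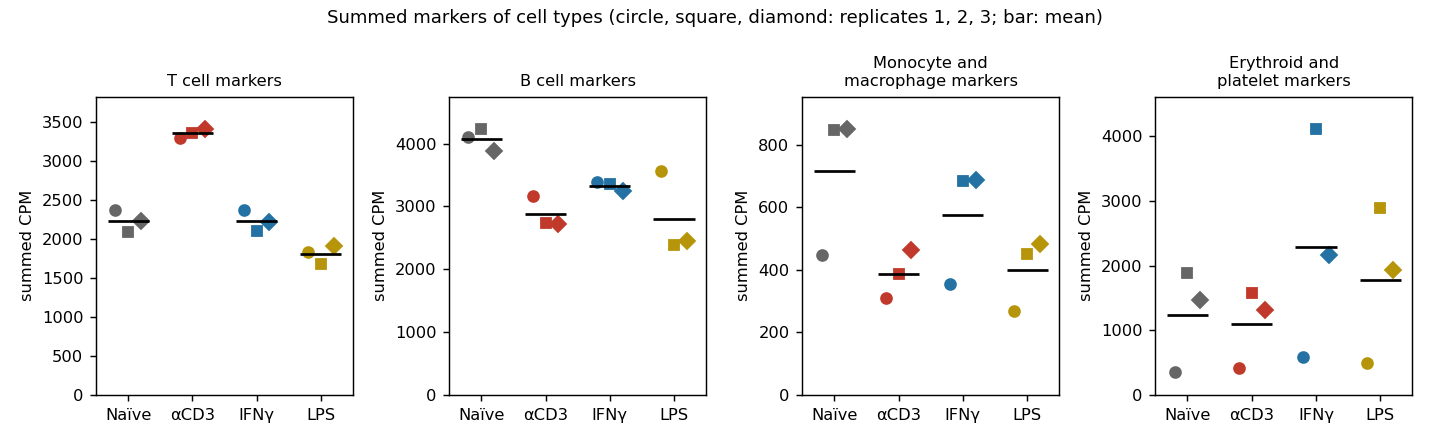
Summed CPM (vertical axes, from 0) of 4 fixed marker lists in each library, by group (horizontal axes), with a bar at the mean of 3 libraries. B cell markers exceed T cell markers in all 3 Naïve libraries, T cell markers are highest in αCD3 (3300 to 3420 CPM), and replicate 1 (circles) is lowest in erythroid and platelet markers in each group.

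Activation through CD3 raised the Nr4a receptors, Egr1 and Nab2, while LPS lowered Egr2, Egr3 and Nab2 and raised Nab1. Egr2 was also called higher with αCD3, mostly on replicate 1 (same-numbered pairs log2 1.15, 0.16 and 0.17). Egr3 missed the threshold with αCD3 in the main fit (adjusted p = 0.276) and passed without LPS replicate 3 (0.00177). With IFNγ, Egr2 was lower and the other 7 did not pass in the main fit, which leaves out the replicate numbers. By edgeR's quasi-likelihood test at an adjusted p under 0.05, all 8 family genes differed among the 4 groups (59.9% of the 12122 genes tested did). Against Naïve, 6 of 8 were higher with αCD3 and 0 lower, where 22.9% of all genes were higher and 15.7% lower. With IFNγ, 0 were higher and 1 lower, against 8.17% and 4.27% of all genes. With LPS, 1 was higher and 3 lower, against 26.9% and 22.3%. With the replicate number as a block, which pairs same-numbered libraries, 3 were higher and 3 lower with LPS, and 1 higher and 1 lower with IFNγ. The median log2 fold change of the 8 genes was 0.87 with αCD3, where the median of all genes was -0.02. With IFNγ it was -0.01 (-0.02 for all genes) and with LPS -0.10 (-0.01 for all genes). The 3 comparisons share the Naïve libraries, and the genes were chosen with earlier results known, so the counts beside these shares are a description.

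**Figure D2:**
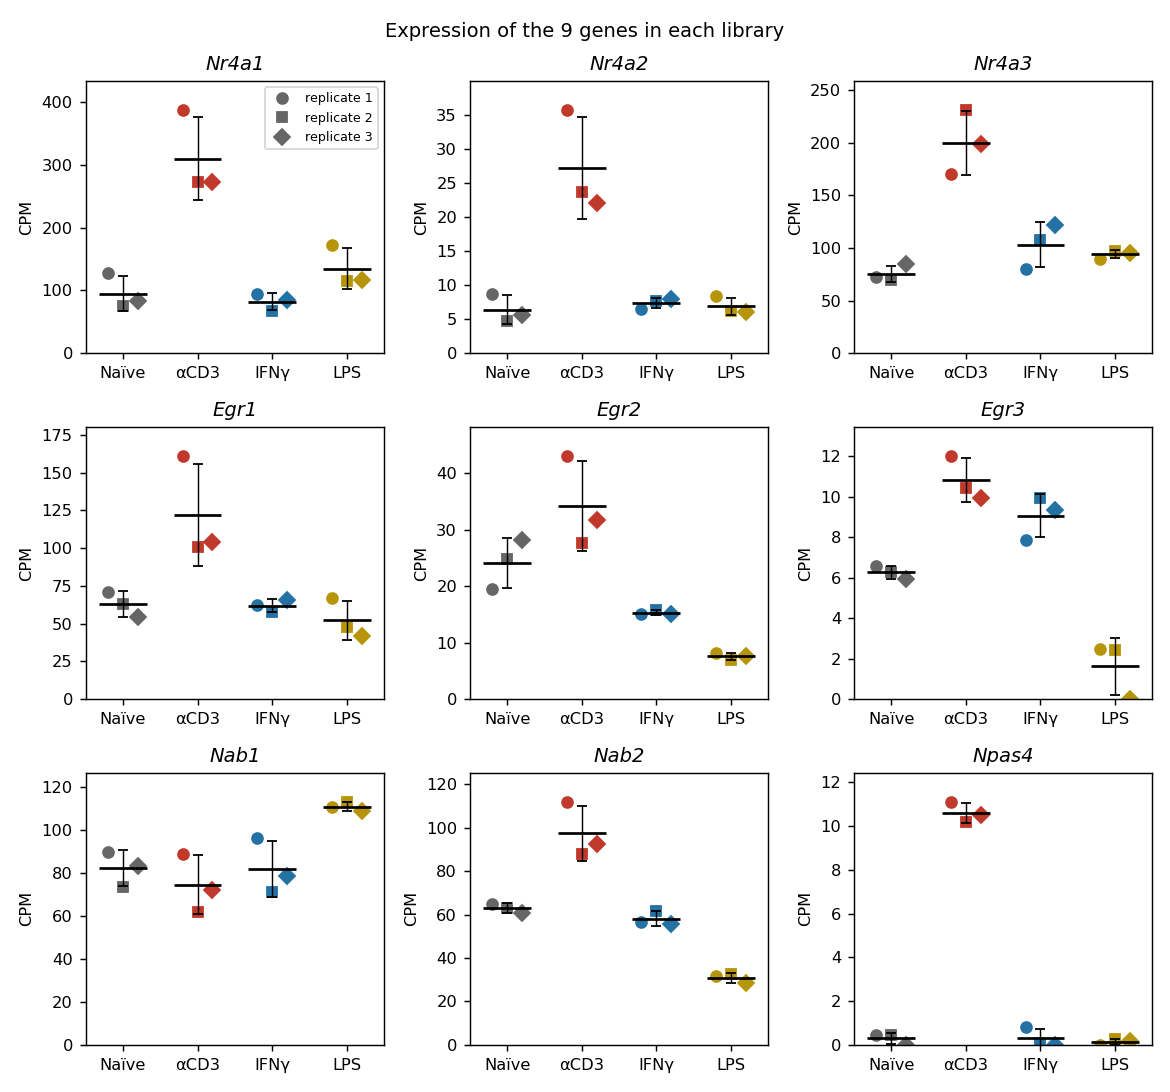
CPM (vertical axes, linear from 0) of each of the 9 genes in the 12 libraries by group, with circles, squares and diamonds for replicates 1, 2 and 3, a bar at the mean and whiskers of 1 SD. The αCD3 libraries are highest for Nr4a1, Nr4a2, Nr4a3, Egr1, Nab2 and Npas4, and the LPS libraries are lowest for Egr2, Egr3 and Nab2 and highest for Nab1.

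**Figure D3:**
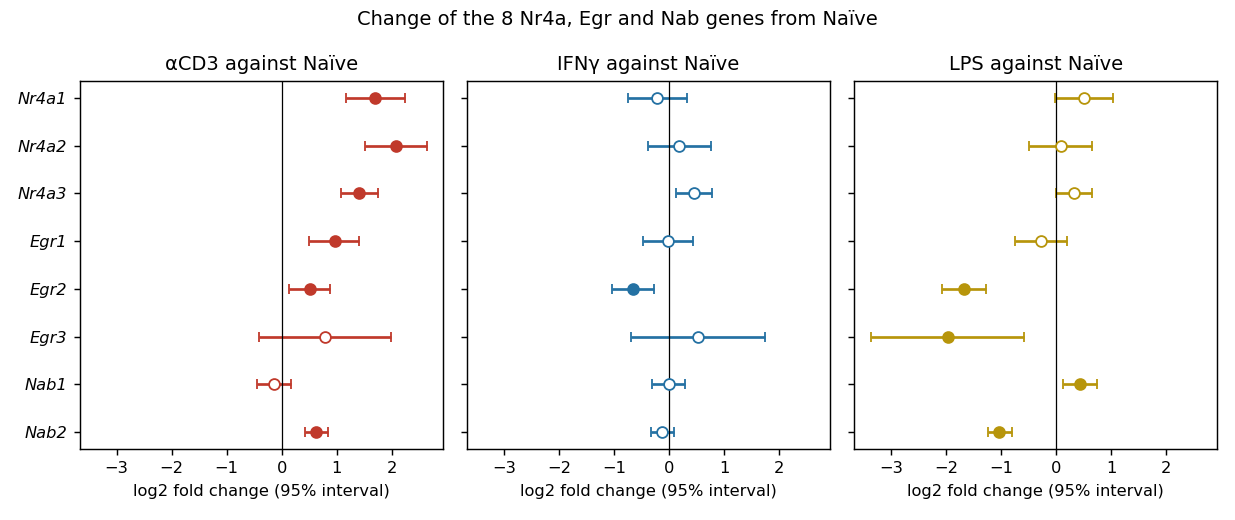
Log2 fold change from Naïve (horizontal axes) with its 95% interval for the 8 family genes under each stimulus. Filled points passed an adjusted p under 0.05: 6 genes right of 0 with αCD3, Egr2 left of 0 with IFNγ, and with LPS Egr2, Egr3 and Nab2 left of 0 and Nab1 right of it.

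Nr4a1, the orphan receptor also called Nur77 and widely used as a reporter of T cell receptor signalling, lies at chr15:101254269-101274795 on the plus strand (GRCm38). It stood at 128, 75.2 and 82.6 CPM in Naïve replicates 1, 2 and 3, and at 387, 273 and 272 CPM in αCD3. IFNγ libraries held 94.4, 68.1 and 84.6 CPM and LPS libraries 173, 115 and 117 CPM. The αCD3 libraries lay above every other library, LPS overlapped Naïve, and replicate 1 was the highest of its group each time. The rise with αCD3 was 3.26-fold (log2 1.70 ± 0.24 SE, adjusted p = 0.000414). LPS differed from Naïve by log2 0.50 ± 0.24 with an adjusted p of 0.106, but the 3 same-numbered pairs differed by 0.44, 0.61 and 0.51, and with the replicate number as a block the adjusted p was 0.000323. Without Naïve replicate 1 the difference was log2 0.78 (adjusted p = 0.0214), without LPS replicate 1 log2 0.29 (0.350), and with scaling by total counts log2 0.30 (0.345). Without the replicate 1 libraries of all groups, left out together after seeing that they stood apart, it was log2 0.56 (adjusted p = 0.000973).

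Nr4a2, also called Nurr1, the least abundant of the 3 receptors, lies at chr2:57106830-57124003 on the minus strand. Its levels were 8.78, 4.77 and 5.69 CPM in Naïve and 35.7, 23.7 and 22.1 CPM in αCD3. IFNγ gave 6.56, 7.61 and 7.99 CPM and LPS 8.38, 6.22 and 6.03 CPM. Naïve, IFNγ and LPS thus overlapped within 4.77 to 8.78 CPM, and αCD3 stood clear of them. The rise of 4.21-fold (log2 2.07 ± 0.25, adjusted p = 0.000129) had the largest fold among the 8 tested genes. Neither IFNγ (log2 0.19, 95% interval -0.38 to 0.76) nor LPS (log2 0.08, interval -0.49 to 0.65) differed from Naïve past the threshold. Without the replicate 1 libraries of all groups, the IFNγ difference was log2 0.55 with an adjusted p of 0.0313.

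Nr4a3, or Nor1, lies at chr4:48045153-48086447 on the plus strand. It measured 72.3, 69.4 and 84.4 CPM in Naïve and 170, 231 and 199 CPM in αCD3. IFNγ libraries held 80.2, 108 and 122 CPM, and LPS libraries 89.9, 97.5 and 95.7 CPM. Here αCD3 replicate 1 was the lowest of its group, opposite to Nr4a1 and Nr4a2. The αCD3 rise was 2.65-fold (log2 1.41 ± 0.15, adjusted p = 6.63e-05). The 2 other stimuli lay above Naïve by less: IFNγ by log2 0.45 ± 0.15 (adjusted p = 0.0798) and LPS by log2 0.32 ± 0.15 (adjusted p = 0.0989). Both passed with the replicate block, at adjusted p = 0.0206 for IFNγ and 0.0347 for LPS. Without IFNγ replicate 1 both passed too, IFNγ at log2 0.60 (adjusted p = 0.0134) and LPS at log2 0.31 (adjusted p = 0.0463). Without IFNγ replicate 3 the IFNγ difference was log2 0.32 (adjusted p = 0.274), and with scaling by total counts the LPS difference was log2 0.11 (adjusted p = 0.498). With the replicate 1 libraries of all groups left out, IFNγ differed by log2 0.56 (adjusted p = 0.00981) and LPS by log2 0.33 (adjusted p = 0.0387).

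Per kilobase of exon, Nr4a1 was the most abundant receptor in each group, at 27.1 ± 8.12 CPM per kb in Naïve and 88.4 ± 18.8 in αCD3. Nr4a3 followed at 12.6 ± 1.33 and 33.4 ± 5.11, and Nr4a2 stood at 1.58 ± 0.517 and 6.69 ± 1.84. Nr4a1 made up 65.0 ± 6.13% of the summed family level in Naïve, 68.4 ± 5.77% in αCD3, 68.3 ± 5.27% in LPS and 55.2 ± 7.92% in IFNγ. The IFNγ libraries (49.4 to 64.2%) lay below the LPS libraries (64.8 to 74.3%), and both overlapped Naïve. The ratio of Nr4a1 to Nr4a3 per kilobase was 3.02, 1.85 and 1.67 in Naïve and 2.01, 1.08 and 1.18 in IFNγ, lower in each of the 3 same-numbered pairs, and is given without a test.

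The promoters of the 3 receptors share a feature that the choice of genes did not use. RefSeq windows of 300 bases, from 250 before to 50 after a start site (GRCm38), were read for 7 of the 9 genes. TGACG, the core of a cAMP response element that CREB and ATF factors bind, was searched on both strands, where the reverse reads CGTCA. It occurred 4 times in the window of each Nr4a gene, while 0.231% of 32851 windows of 27025 genes held 4 or more and 20.8% held at least 1. At least 2 were in 5.01% and at least 3 in 1.03%. The cut of 4 is the count seen in these genes, and the windows were not matched for base content, so the shares are a description. The stretches upstream of annotated exons are shown to let the sites be seen, with each site in capitals: 250 bases for Nr4a1 (chr15:101266596-101266845, plus strand, at a start site within the annotated gene) and Nr4a2 (chr2:57124004-57124253, minus strand), and 98 bases for Nr4a3 (chr4:48045055-48045152, plus strand), which hold 3 of its 4 sites.
Nr4a1: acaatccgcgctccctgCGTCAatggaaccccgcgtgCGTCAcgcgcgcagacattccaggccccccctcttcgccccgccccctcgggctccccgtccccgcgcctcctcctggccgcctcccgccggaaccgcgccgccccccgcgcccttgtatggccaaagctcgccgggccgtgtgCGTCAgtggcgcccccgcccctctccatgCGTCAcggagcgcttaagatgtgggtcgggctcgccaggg
Nr4a2: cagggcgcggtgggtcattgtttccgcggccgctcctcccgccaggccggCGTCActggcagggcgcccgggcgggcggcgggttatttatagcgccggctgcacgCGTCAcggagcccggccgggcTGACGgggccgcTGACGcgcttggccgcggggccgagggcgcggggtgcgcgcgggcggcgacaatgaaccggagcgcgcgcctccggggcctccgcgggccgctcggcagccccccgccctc
Nr4a3: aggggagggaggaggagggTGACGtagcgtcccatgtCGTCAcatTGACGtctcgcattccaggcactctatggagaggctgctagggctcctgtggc
The full element, TGACGTCA, was in none of the windows read for these genes, and in 1.79% of all windows. The windows of Npas4 and Nab1 held 2 and 1 TGACG sites, and that of Nab2 held none. In all, 6 motifs were searched. GCGNGGGCG, a site of Egr factors, was found 3 times in the Nab1 window, 1 time in those of Nr4a1 and Nr4a2, in none of the other windows read, that of Nab2 included, and in 5.55% of all windows. AAAGGTCA, a site of Nr4a receptors, was in none of the members' windows (1.51% of all), and GGAAA, the core of NFAT sites, was in that of Nr4a2 and in 4 of the 5 of Egr2 (61.3% of all). The sites describe letters and not binding, and no match says only that these letters are not in a window.

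Egr1, the most abundant Egr factor and a zinc finger activator induced by ERK signalling, measured 71.1, 63.3 and 54.3 CPM in Naïve and 161, 101 and 104 CPM in αCD3. IFNγ libraries held 62.3, 57.6 and 65.9 CPM and LPS libraries 66.8, 48.0 and 41.5 CPM. The αCD3 libraries lay above all others, and the 3 remaining groups overlapped. The αCD3 rise was 1.94-fold (log2 0.96 ± 0.21, adjusted p = 0.00452). IFNγ differed from Naïve by log2 -0.02 (95% interval -0.48 to 0.44) and LPS by log2 -0.28 (interval -0.74 to 0.19, adjusted p = 0.296). Without the replicate 1 libraries of all groups, the LPS value was log2 -0.39 with an adjusted p of 0.0117.

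Egr2, which restrains T cell activation and is needed for anergy, spans chr10:67535475-67542188 on the plus strand. Its levels were 19.4, 24.8 and 28.2 CPM in Naïve, 43.0, 27.6 and 31.7 CPM in αCD3, 15.1, 15.7 and 15.1 CPM in IFNγ, and 8.18, 6.89 and 7.56 CPM in LPS. The groups stood in the order αCD3, Naïve, IFNγ, LPS, and only αCD3 and Naïve overlapped. The fall with LPS was 3.20-fold (log2 -1.68 ± 0.18, adjusted p = 3.79e-05). With IFNγ it was 1.57-fold (log2 -0.65 ± 0.17, adjusted p = 0.0319). The same-numbered pairs fell by 0.36, 0.65 and 0.90 with IFNγ.

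The call on Egr2 with IFNγ was lost without Naïve replicate 2 (log2 -0.63, adjusted p = 0.0942), without Naïve replicate 3 (log2 -0.52, adjusted p = 0.125), and without IFNγ replicate 1, 2 or 3 (log2 -0.65, -0.68 and -0.64, adjusted p = 0.0675, 0.0910 and 0.0984). It held with the replicate block (log2 -0.65, adjusted p = 0.0279) and without the replicate 1 libraries of all groups (log2 -0.80, adjusted p = 0.00138). The rise of Egr2 with αCD3 was 1.42-fold (log2 0.51 ± 0.17, adjusted p = 0.0333) and rested mostly on replicate 1. The pairs differed by log2 1.15, 0.16 and 0.17. Without αCD3 replicate 1 it was log2 0.30 (adjusted p = 0.129), without αCD3 replicate 3 log2 0.56 (0.0539), without Naïve replicate 1 log2 0.37 (0.118) and without Naïve replicate 2 log2 0.53 (0.0690). Without the replicate 1 libraries of all groups it was log2 0.17 (adjusted p = 0.243). It was lost as well when scaled by total counts and not by TMM, trimmed means of log ratios (log2 0.40, adjusted p = 0.0929) and with a fit on the 2 groups compared (adjusted p = 0.0850).

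A CArG box (CC, a run of A or T, GG), the site of serum response factor, was found in 4 of the 5 RefSeq windows of Egr2, of which several overlap, and in 1.63% of all windows. It was in no window of the 3 Nr4a genes. The window at the outermost annotated start of the gene held none. The box shown in capitals lies in chr10:67537619-67537868 (plus strand), upstream of a RefSeq start site that is inside the annotated Egr2 gene, and 2 TGACG sites in the same stretch are in lower case.
Egr2: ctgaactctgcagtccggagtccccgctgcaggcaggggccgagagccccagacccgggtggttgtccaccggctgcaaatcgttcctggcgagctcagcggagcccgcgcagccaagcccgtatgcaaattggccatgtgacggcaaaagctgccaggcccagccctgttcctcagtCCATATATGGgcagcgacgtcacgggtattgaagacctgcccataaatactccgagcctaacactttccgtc

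Egr3, which acts beside Egr2 in anergy, lies at chr14:70077203-70082614 on the plus strand. It was low throughout, at 6.58, 6.26 and 5.93 CPM in Naïve and 12, 10.4 and 9.91 CPM in αCD3. IFNγ libraries held 7.86, 9.91 and 9.35 CPM and LPS libraries 2.45, 2.44 and 0 CPM. Every αCD3 and IFNγ library lay above, and every LPS library below, the Naïve libraries. In LPS, replicates 1 and 2 held 23.8 and 29.3 estimated counts, and replicate 3, the deepest of the group, was listed at 0. LPS lowered Egr3 by log2 -1.97 ± 0.63 (adjusted p = 0.0240), or by log2 -1.35 (adjusted p = 0.000274) without LPS replicate 3. By limma-voom, with that library in, it was log2 -3.44. The call was lost in the fit on the 2 groups (adjusted p = 0.0985) and without Naïve replicate 1 (log2 -1.93, adjusted p = 0.0514).

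The other Egr3 comparisons also differed with and without that library, since all 12 libraries share a fit. Against Naïve, αCD3 differed by log2 0.79 with a 95% interval of -0.42 to 1.99 and an adjusted p of 0.276. Without LPS replicate 3 the same difference had an adjusted p of 0.00177, and in a fit on αCD3 and Naïve alone it was log2 0.78 with an adjusted p of 0.00624. For IFNγ the difference of log2 0.53 had an adjusted p of 0.607, and 0.0362 without LPS replicate 3. The 3 same-numbered pairs were higher with αCD3 by 0.85, 0.72 and 0.73, and with IFNγ by 0.25, 0.65 and 0.64.

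Per kilobase, Egr1 led in all groups, and the balance of the family moved with LPS. Egr1 made up 62.1 ± 6.58% of the summed family level in Naïve, 68.3 ± 1.64% in αCD3, 67.8 ± 2.31% in IFNγ and 81.5 ± 1.62% in LPS. The LPS libraries, at 80.6 to 83.4%, lay above all others. Egr2 fell from 31.6 ± 6.73% in Naïve to 16.0 ± 3.02% in LPS, and these shares are given without a test.

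Nab2 and Nab1, corepressors that bind Egr proteins, moved in opposite directions with LPS. Nab2 lies at chr10:127660918-127668568 on the minus strand. It measured 65.1, 63.1 and 60.6 CPM in Naïve, 112, 87.9 and 92.6 CPM in αCD3, 56.8, 61.9 and 55.5 CPM in IFNγ, and 31.8, 32.6 and 28.3 CPM in LPS. The αCD3 and LPS groups each stood clear of all others, and IFNγ and Naïve overlapped. With αCD3 it rose 1.55-fold (log2 0.63 ± 0.09, adjusted p = 0.000440), and with LPS it fell 2.04-fold (log2 -1.03 ± 0.10, adjusted p = 1.55e-05). With IFNγ the difference was log2 -0.12 (95% interval -0.32 to 0.09).

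The annotated Nab2 gene overlaps Stat6 and other genes on the opposite strand, only 62.1% of its words of 31 bases are unique to it, and how strand was treated in counting is not given in the sources used here. Stat6 differed from Naïve by log2 0.06 with αCD3, -0.07 with IFNγ and 0.09 with LPS (adjusted p = 0.607, 0.673 and 0.379). The words are shared with Nemp1, a symbol the count table does not hold, with Gm16229, whose levels were not analysed here, and with Madd. The part of shared reads in the Nab2 values was not tested.

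Nab1 lies at chr1:52457294-52500679 on the minus strand. It stood at 90.0, 73.5 and 83.3 CPM in Naïve, 89.1, 62.0 and 72.2 CPM in αCD3, 96.5, 71.2 and 78.5 CPM in IFNγ, and 111, 113 and 109 CPM in LPS. Naïve, αCD3 and IFNγ overlapped, and LPS lay above them. The rise with LPS was 1.35-fold (log2 0.43 ± 0.14, adjusted p = 0.0247). It was lost without Naïve replicate 2 (log2 0.36, adjusted p = 0.0900), Naïve replicate 3 (log2 0.44, 0.0563), LPS replicate 2 (log2 0.42, 0.0663) or LPS replicate 3 (log2 0.45, 0.0518), and with library size alone it was log2 0.22 (adjusted p = 0.249). The differences with αCD3 (log2 -0.14, 95% interval -0.45 to 0.17) and IFNγ (log2 -0.00, interval -0.31 to 0.30) did not pass.

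The ratio of Nab2 to Nab1 per kilobase summarised the pair. It was 1.01, 1.20 and 1.01 in Naïve, 1.75, 1.98 and 1.79 in αCD3, 0.821, 1.21 and 0.986 in IFNγ, and 0.399, 0.402 and 0.363 in LPS. By this measure the 2 corepressors were near equal in Naïve and IFNγ libraries, Nab2 exceeded Nab1 in each αCD3 library, and Nab1 exceeded Nab2 in each LPS library. Which gene is the more abundant depends on the lengths used, all annotated exon bases, and on the reads that Nab2 shares.

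Npas4, a bHLH-PAS factor best known as an activity-induced gene of neurons, lies at chr19:4984355-4990316 on the minus strand. It was near 0 outside αCD3. Naïve libraries held 0.439, 0.469 and 0 CPM, αCD3 libraries 11.1, 10.2 and 10.5 CPM, IFNγ libraries 0.810, 0.0885 and 0 CPM, and LPS libraries 0, 0.252 and 0.161 CPM. In estimated counts, αCD3 held 314.4, 122.8 and 129.8, while no other library held more than 10. Per kilobase, Npas4 in αCD3 (2.56 ± 0.111 CPM per kb) was at the level of Egr3 (2.45 ± 0.246) and below Nr4a2 (6.69 ± 1.84). IFNγ and LPS differed by log2 1.08 ± 1.32 (adjusted p = 0.525), and at so few counts no difference between them could be measured.

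Set directly against each other, αCD3 and LPS separated all 8 family genes. Against LPS, αCD3 was higher in 7 and lower in 1, Nab1, where 9.64% of all genes were higher and 9.76% lower. The median log2 difference was 1.45 (-0.01 for all genes). Egr3 (6.74-fold, log2 2.75 ± 0.63, adjusted p = 0.0121), Egr2 (4.55-fold, log2 2.19 ± 0.18, adjusted p = 2.76e-05) and Nr4a2 (3.97-fold, log2 1.99 ± 0.25, adjusted p = 0.000423) differed most. Without LPS replicate 3, Egr3 differed by log2 2.14 (adjusted p = 0.000116), and by limma-voom on all libraries by log2 4.25. Nab2 differed 3.16-fold (adjusted p = 3.9e-06), Egr1 2.35-fold (0.00252), Nr4a1 2.30-fold (0.00657) and Nr4a3 2.12-fold (0.000797). For Nab1, at log2 -0.57 ± 0.14 (adjusted p = 0.0162), the call was lost without αCD3 replicate 2 (log2 -0.46, adjusted p = 0.0514), αCD3 replicate 3 (log2 -0.55, 0.0575) or LPS replicate 2 (log2 -0.56, 0.0535).

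IFNγ stood below αCD3 in 6 of 8 genes and above it in 0, where 21.4% of all genes were lower and 15.8% higher. The 6 were Nr4a1 (3.77-fold), Nr4a2 (3.69-fold), Egr2 (2.24-fold), Egr1 (1.97-fold), Nr4a3 (1.93-fold) and Nab2 (1.68-fold), with adjusted p between 0.000144 and 0.00387. Egr3 (log2 -0.26, 95% interval -1.46 to 0.94) and Nab1 (log2 0.14, interval -0.17 to 0.45) did not pass. Against LPS, IFNγ was higher in 3 genes and lower in 2, with 18.0% and 22.4% of all genes in these directions. Egr3 (5.64-fold, adjusted p = 0.00929), Egr2 (2.03-fold, adjusted p = 0.00130) and Nab2 (1.88-fold, adjusted p = 3.31e-05) were higher with IFNγ. Without LPS replicate 3, Egr3 differed by log2 1.88 (adjusted p = 4.48e-05), and by limma-voom on all libraries by log2 3.95. Nr4a1 (log2 -0.71 ± 0.24, adjusted p = 0.0371) and Nab1 (log2 -0.44 ± 0.14, adjusted p = 0.0288) were lower. Nr4a1 lost its call without IFNγ replicate 2 (log2 -0.59, adjusted p = 0.121), IFNγ replicate 3 (log2 -0.73, 0.0765) or LPS replicate 1 (log2 -0.50, 0.130). Nab1 lost it without IFNγ replicate 2 (log2 -0.34, 0.106), IFNγ replicate 3 (log2 -0.40, 0.0837), or LPS replicate 1, 2 or 3 (log2 -0.44, -0.42 and -0.45, adjusted p = 0.0538, 0.0758 and 0.0595). Once the replicate 1 libraries of all groups were left out, Egr1 was higher with IFNγ than with LPS by log2 0.44 (adjusted p = 0.00770).

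Over the 12 libraries, the levels of the genes fell into overlapping patterns. Egr2 and Nab2 had a Pearson r of 0.95, the highest among the 9 genes. It was 0.92 for Nr4a1 with Nr4a2 and for Nr4a2 with Egr1. Nr4a1 and Egr2 had an r of 0.40, and Nab1 was negative with every other gene, from -0.75 with Nab2 to -0.08 with Nr4a1. These values describe log2 CPM over libraries that share groups and replicate numbers.

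**Figure D4:**
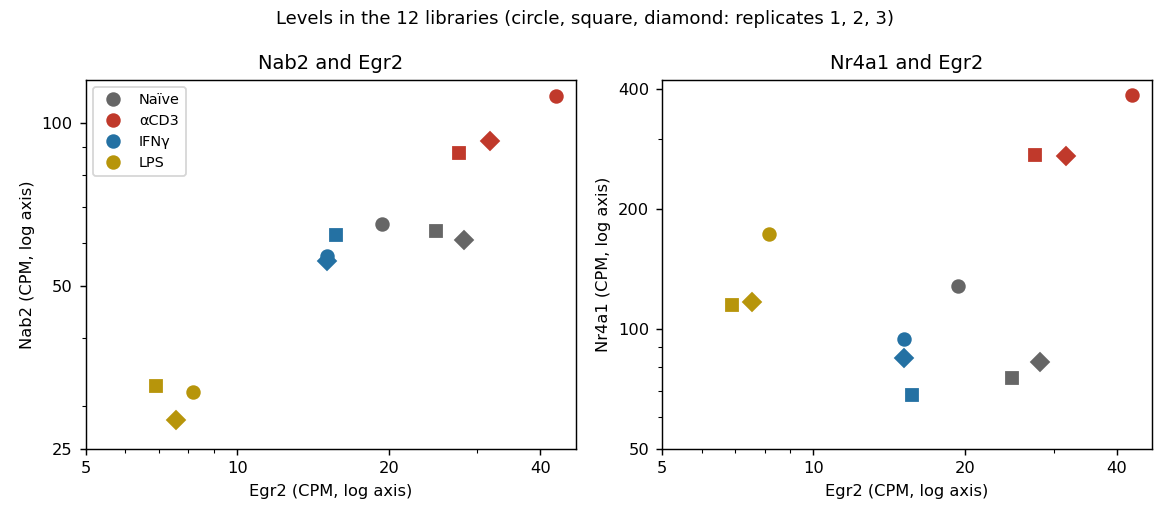
CPM of Nab2 (left) and Nr4a1 (right) against CPM of Egr2 in the 12 libraries (log axes), coloured by group, with circles, squares and diamonds for replicates 1, 2 and 3. Nab2 and Egr2 lie along a common line from LPS to αCD3 (r = 0.95), while LPS libraries, lowest in Egr2, hold more Nr4a1 (115 to 173 CPM) than IFNγ libraries.

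Outside the 9 genes, those with the most similar pattern over the 12 libraries were taken by Pearson r of log2 CPM. For Nr4a1 they were Tmem201 (r = 0.983) and Slc1a5, a glutamine transporter (0.975), and for Nr4a2 Rnf19a (0.976) and Gfi1, a zinc finger repressor (0.975). Egr1 ran with Cd5, an inhibitory receptor of T cells (r = 0.940, 48.0 CPM in Naïve and 141 CPM in αCD3), and Myb (0.936). Egr2 ran with Ptprcap, a partner of the phosphatase CD45 (0.962), and Ripk3, a kinase of necroptosis (0.958). For Egr3 they were Kcnn4, a calcium-activated potassium channel (0.946), and Rassf7 (0.926). For Nab2 they were Rgs3 and Mmd (both 0.969), for Nab1 Tnip1, an inhibitor of NF-κB (0.953), and Rbm18 (0.950), for Nr4a3 Smyd1 (0.971) and Parn (0.970), and for Npas4 Fdxr (0.959) and Bhlhb9 (0.952).

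Genes of the signalling pathways upstream of these families moved in both directions. The shares of all genes higher and lower were 22.9% and 15.7% with αCD3, 8.17% and 4.27% with IFNγ, and 26.9% and 22.3% with LPS, and the counts of each gene list stand against these. The lists too were chosen with earlier results of these data known, so their counts are a description. Of 19 calcium, calcineurin and NFAT genes, 2 were higher and 4 lower with αCD3 (median log2 fold change -0.10), 2 and 1 with IFNγ (-0.15), and 1 and 9 with LPS (-0.22). Nfatc1, an NFAT factor (log2 0.94 ± 0.29, adjusted p = 0.0252), and Orai1, the calcium channel (log2 0.54 ± 0.08, adjusted p = 0.000408), rose with αCD3. Orai1 fell with IFNγ (log2 -0.28 ± 0.08, adjusted p = 0.0455). Stim1, the calcium sensor of the endoplasmic reticulum, fell with αCD3 (log2 -0.81 ± 0.15) and LPS (log2 -0.84 ± 0.16). Of 24 ERK pathway genes and factors bound at immediate early promoters, 4 were higher and 5 lower with αCD3, 4 and 3 with IFNγ, and 6 and 7 with LPS. Rasgrp1, the Ras activator downstream of the T cell receptor, was lower in all 3 (log2 -0.70, -0.69 and -0.96). Srf, serum response factor itself, was lower with IFNγ (log2 -0.44 ± 0.06, adjusted p = 0.00120) and higher with αCD3 (log2 0.29 ± 0.06, adjusted p = 0.00298) and LPS (log2 0.33 ± 0.06, adjusted p = 0.00112).

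Among other immediate early genes, of which Fos and Jun are the best known, the directions were mixed. Of 27 tested, 3 were higher and 3 lower with αCD3, 2 and 4 with IFNγ, and 9 and 6 with LPS, where 22.9% and 15.7%, 8.17% and 4.27%, and 26.9% and 22.3% of all genes were higher and lower. Btg2, an inhibitor of proliferation, fell with αCD3 (log2 -0.63 ± 0.11, adjusted p = 0.00123), and Nfil3 (log2 -1.15 ± 0.28, adjusted p = 0.0223) and Plk3 (log2 -0.92 ± 0.21, adjusted p = 0.0174) fell with IFNγ. Myc rose with αCD3 (151 ± 7.5 to 508 ± 109 CPM, log2 1.75 ± 0.15) and with LPS (597 ± 37.7 CPM, log2 1.98 ± 0.15). Jun, a subunit of AP-1, rose with IFNγ (125 ± 9.14 to 598 ± 87.7 CPM, log2 2.25 ± 0.27) and LPS (495 ± 199 CPM, log2 1.98 ± 0.27), and Gadd45b, a stress response gene, rose with all 3 stimuli (log2 0.59 ± 0.09 with αCD3, 0.51 ± 0.09 with IFNγ and 1.82 ± 0.09 with LPS).

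Of 14 genes linked to Nr4a factors in T cells, 9 were higher and 2 lower with αCD3 (median log2 0.55), 3 and 0 with IFNγ (0.14), and 6 and 3 with LPS (0.25), beside 22.9% and 15.7%, 8.17% and 4.27%, and 26.9% and 22.3% of all genes. Tox2, a factor of exhausted T cells (log2 2.37 ± 0.28), Il2ra, the interleukin 2 receptor α chain (log2 2.17 ± 0.28), and Irf4, an activation factor (log2 1.68 ± 0.10), rose most with αCD3. Il2ra and Irf4 also rose with LPS (log2 2.70 ± 0.28 and 1.38 ± 0.10), and Il2ra with IFNγ (log2 0.93 ± 0.27, adjusted p = 0.0469). Ikzf2 rose with IFNγ as well (log2 0.82 ± 0.13, adjusted p = 0.00233). Batf rose with LPS (log2 2.38 ± 0.15). Of 18 genes linked to Egr factors, 5 were higher and 5 lower with αCD3 (median 0.22), 3 and 1 with IFNγ (0.09), and 6 and 5 with LPS (0.31), to be read against the same shares. Crtam, an adhesion receptor of activated CD8 T cells (log2 3.56 ± 0.24), Lag3, an inhibitory receptor (log2 3.48 ± 0.26), and Tnfrsf9, the co-receptor 4-1BB (log2 2.78 ± 0.37), rose with αCD3. Lag3 also rose with IFNγ (log2 0.97 ± 0.26, adjusted p = 0.0351) and LPS (log2 1.25 ± 0.26, adjusted p = 0.00251). The largest rise of this list with IFNγ was that of Socs1 (log2 2.10 ± 0.53, adjusted p = 0.0272), which rose with LPS too (log2 1.55 ± 0.52, adjusted p = 0.0306). Rnf128, the anergy E3 ligase GRAIL, fell with αCD3 (log2 -1.25 ± 0.31), IFNγ (log2 -1.54 ± 0.32) and LPS (log2 -2.20 ± 0.34).

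Of the 8 partners and further family members that could be tested, none was higher under any stimulus and 3, 1 and 2 were lower with αCD3, IFNγ and LPS, among them Chd3, a chromatin remodeller (log2 -0.59, -0.70 and -0.95). Of all genes, 22.9% were higher and 15.7% lower with αCD3, 8.17% and 4.27% with IFNγ, and 26.9% and 22.3% with LPS. Cell type markers differed between the same groups. Of 14 T cell markers, 9 were higher and 1 lower with αCD3, 0 and 0 with IFNγ, and 0 and 10 with LPS. Of 14 B cell markers, 0 were higher and 6 lower with αCD3, 0 and 2 with IFNγ, and 1 and 5 with LPS. With LPS the median of the B cell markers was log2 -0.28. Cd79b (log2 -1.88) and Cd79a (log2 -1.62) fell most, Pax5 was called higher, and Ms4a1 differed by log2 -0.17 (adjusted p = 0.380). Of 14 monocyte and macrophage markers, 0 and 5, 0 and 3, and 2 and 8 were higher and lower. The part of cell makeup in the changes of the Nr4a, Egr and Nab genes was not tested.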

How the data were processed

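RNA of 12 libraries (4 groups of 3) was analysed. The authors pseudoaligned reads with Kallisto to mm10 (version and annotation not given in the sources used here) and deposited estimated counts per gene symbol, which were rounded. The submitters' processing notes also name DESeq2 1.24.0. The deposited table held no column without a sample.

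Counts were tested with edgeR 4.0.16 (R 4.3.3): TMM scaling, filterByExpr (12122 genes left, all 9 members among them), robust glmQLFit on all 12 libraries with group as the sole factor, quasi-likelihood F-tests and Benjamini-Hochberg adjustment over all genes tested. CPM use TMM-scaled library sizes. The code was tested on simulated data. Alternatives were DESeq2 1.42.0, limma-voom (limma 3.58.1), other scalings and filters, a replicate block, fits on the 2 groups compared, and leaving out each library. Members and lists were chosen with earlier results of these data known. Beyond the members, a rule named up to 3 called genes a list per comparison with Naïve by size of change (at least 5 CPM). It also named the 2 most similar genes a member. Not all genes it named are given, such as Mef2c (log2 -1.36) and Map2k1 (log2 0.88) with LPS. Those given are thus not always the largest changes of their list. Some of these genes, and Pax5 and Ms4a1, are also given in comparisons where the rule did not name them, chosen after their values were seen. Exon lengths (all annotated exon bases of a gene) and positions are from GENCODE M21, promoters from RefSeq.

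Same-numbered libraries deviated from their group means together (18 of 18 pairs, correlation 0.117 to 0.401, other pairs -0.354 to 0.102). The labels do not say what the numbers mark. The main fit therefore leaves this pairing out, and only the replicate block uses it. Nothing says that replicates came from separate mice, so p-values measure the spread between these libraries, which may be technical.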

Additional observations from a re-analysis of the deposited data

How the results depend on the processing

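Against Naïve, the number of the 8 family genes called with IFNγ (1 in the report) was 2 by DESeq2, 0 by limma-voom, 2 with the replicate block, 0 to 2 when a library was left out (0 without Naïve replicate 2 or 3 or IFNγ replicate 2 or 3, 2 without LPS replicate 3) and 3 without the replicate 1 libraries of all groups. For IFNγ against LPS (5) it was 3 with library size alone, and 3 to 5 when a library was left out (3 without IFNγ replicate 2 or 3 or LPS replicate 1). The other counts, over both directions, stayed within 1.5 times under all alternatives run. By direction, with LPS against Naïve 0 to 3 were higher (1 in the report; 0 with library size alone or without Naïve replicate 2 or 3 or LPS replicate 2 or 3) and 2 to 3 lower, and in αCD3 against LPS 0 to 1 were lower. The replicate block changed no call beyond those given for Nr4a3 with IFNγ and for Nr4a1 and Nr4a3 with LPS. Library size alone shifted the median of all genes to -0.13, -0.16 and -0.22 for αCD3, IFNγ and LPS against Naïve. Uncalled values near 0 changed sign: Nr4a2 with LPS (-0.12 with library size alone, -0.08 to 0.38 when a library was left out). When a library was left out, Nr4a1 (-0.35 to 0.06), Egr1 (-0.12 to 0.08) and Nab1 (-0.15 to 0.09) with IFNγ against Naïve did too, as did Nab1 in IFNγ against αCD3 (-0.00 to 0.29) and Nr4a3 in IFNγ against LPS (-0.01 to 0.29). Npas4, at so few counts, ranged from -1.48 to 1.74 in IFNγ against LPS and from -2.50 to 0.60 in IFNγ against Naïve. Egr1 with IFNγ was 0.06 without the replicate 1 libraries of all groups, where Npas4 in IFNγ against LPS was -1.96. Other single calls that ended were Egr2 with IFNγ by limma-voom (adjusted p = 0.0832), and, with library size alone, Nr4a1 and Nab1 in IFNγ against LPS (0.0683 and 0.0876) and Nab1 in αCD3 against LPS (0.0555). With no filter on low counts, Nr4a1 in IFNγ against LPS had an adjusted p of 0.0524. In fits on the 2 groups compared, Egr3 had an adjusted p of 0.0587 in IFNγ against LPS and 0.0800 in αCD3 against LPS. Without the replicate 1 libraries, Egr3 had an adjusted p of 0.0810 in LPS against Naïve and 0.0552 in αCD3 against LPS. Nr4a3 passed with IFNγ by DESeq2 (0.0425) and with LPS in the fit on the 2 groups (0.0275). These causes were not tested. Depth limits the low genes: Npas4 held at most 10 estimated counts outside αCD3.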

Other observations

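Egr4, the remaining Egr factor, lay below the filter on low counts and was not tested. It held 21, 11 and 9 estimated counts in the αCD3 libraries (0.792 ± 0.103 CPM, SD, n = 3), and 0.341 ± 0.188 CPM in Naïve, 0.180 ± 0.0930 in IFNγ and 0.231 ± 0.0803 in LPS.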
